A study of Mus musculus with 8 samples.

Results

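The nuclear-encoded subunits of respiratory complexes III and IV and of ATP synthase were followed in mouse left ventricle, with cytochrome c beside them. Members were the protein-coding genes of the count table whose GENCODE M21 symbol begins with Uqcr, Cox4i, Cox5a, Cox5b, Cox6, Cox7, Cox8 or Atp5, and Cyc1 and Cycs. The rule found 45 genes among the 38293 gene identifiers of the table, and another 7 identifiers that fit the symbol pattern were left out because they are not annotated as protein-coding. By role there were 9 genes of complex III, Cycs, 18 genes of complex IV and 17 genes of ATP synthase. Cox7a2l and Atp5s, which the pattern takes in by name, are not regular subunits: Cox7a2l encodes a factor that joins complexes III and IV into supercomplexes, and Atp5s encodes a protein known as coupling factor B.

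The study set 4 wild-type (WT) hearts against 4 hearts whose mice carried a knockout (KO) of Nbdy (mORF4), the gene of a microprotein that associates with mRNA decapping proteins. All 8 mice were untreated males of 8 weeks on a C57BL/6 background, and each heart gave 1 library of poly(A) RNA made with a stranded TruSeq kit. No label says what the KO allele is, so how Nbdy was disrupted, and whether in all cells, is not known here. Nbdy, in CPM (counts scaled to library size), averaged 19.4 ± 0.470 in WT libraries and 9.92 ± 0.412 in KO libraries (SD, n = 4 in both). Its log2 fold change of -0.97 ± 0.11 (SE) passed edgeR's test (adjusted p = 0.0060). All KO libraries lay below all WT libraries, and the transcript was still counted in each KO heart. Libraries held 11101901 to 14699949 counts. Mitochondrially encoded genes took 29.2% of counts in WT replicate 1, 19.4 to 19.9% in the other 3 WT libraries and 23.0 to 26.7% in the KO libraries. The 7 cardiomyocyte markers examined (Myh6, Myl2, Myl3, Tnnt2, Tnni3, Actc1 and Ryr2) summed to between 60652 and 75082 CPM in every library.

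Complex III passes electrons from ubiquinol to cytochrome c, a small carrier in the space between the mitochondrial membranes, and complex IV passes them on to oxygen. Both pump protons, and ATP synthase lets the protons flow back to make ATP. Each complex is built from a few subunits encoded in mitochondrial DNA and many encoded in the nucleus, and heart muscle, which lives almost wholly on oxidative metabolism, carries very large amounts of them. Complex IV differs from the other complexes in that several of its nuclear subunits exist as isoforms from separate genes, some used mainly in heart and skeletal muscle and others in most tissues.

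The transcripts ranked among the most abundant of the ventricle. Together the 45 genes took 4.39 ± 0.540% of all counts in the 4 WT libraries (SD) and 4.28 ± 0.213% in the 4 KO libraries, and of the counts of nuclear genes alone they took 5.62 ± 0.392% and 5.66 ± 0.222%. Levels of different genes are compared here per length, as CPM per kb of the shortest well-supported principal transcript of each gene. On that scale Cox4i1, the common form of complex IV subunit 4, was highest with a mean of 4392 over the 8 libraries. Cox6a2 followed at 3981, Atp5g3 at 3440, Cox8b at 3321 and Cox7a1 at 3257. The muscle isoforms of complex IV and the main source of ATP synthase subunit c thus stood beside Cox4i1 at the top. Most other subunits lay between about the level of Uqcrc2 (343 CPM per kb) and that of Uqcrq (2799), a small subunit of complex III. The value for Uqcrq depends on the transcript taken as its length, and with its longest principal transcript it would be 745. Cycs stood far below its partners at 40.3 CPM per kb, on a transcript of 3123 bases.

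**Figure D1:**
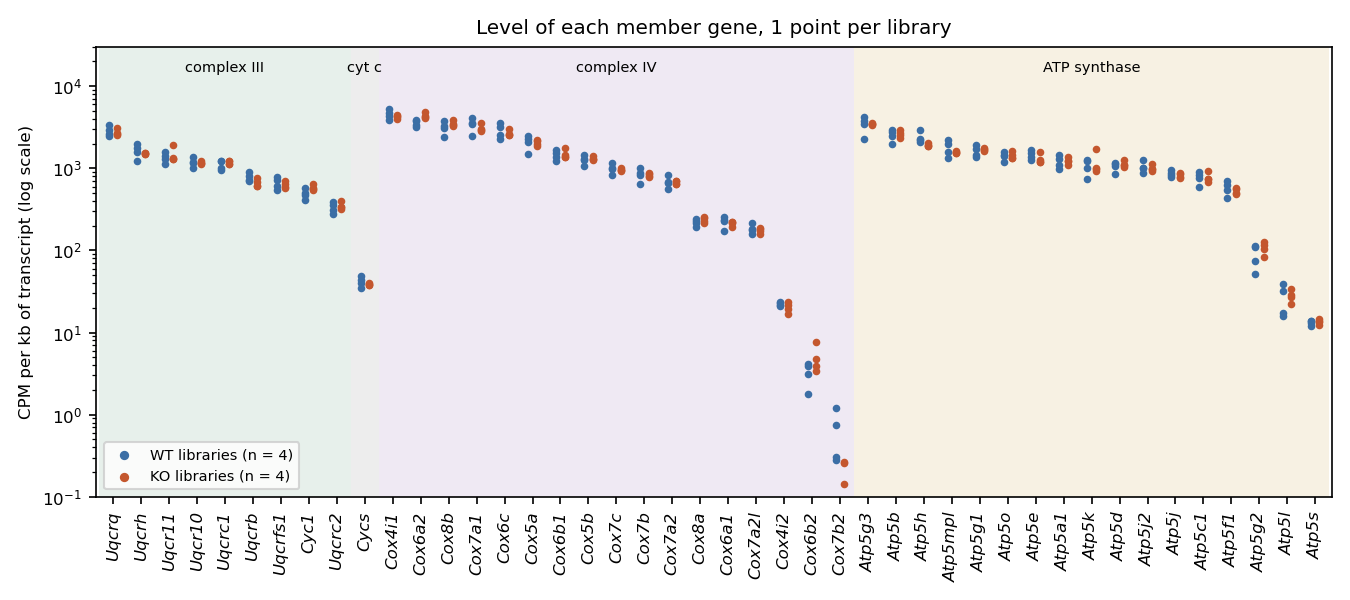
Level of each member gene in CPM per kb of transcript (log axis), 1 point per library, with WT in blue and KO in orange, ordered by role and then by mean level. Cox4i1 leads at a mean of 4392, most subunits lie between 343 and 3981, and the isoforms Cox4i2, Cox6b2 and Cox7b2 lie at the bottom of complex IV (libraries with no count of Cox7b2, and Cox8c, which had none, are not drawn).

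Of the isoform genes best known from lung or testis, Cox4i2 was low and the others were near or at 0. Cox4i2, the lung isoform, had 21.4 CPM per kb, from 139 to 222 counts per library. Cox6b2, a testis isoform, had 4.07 CPM per kb, from 9 to 51 counts per library. Cox7b2, another testis gene, had 0 to 7 counts in each library and was too low to be tested. Cox8c had 0 counts in all 8 libraries. A single library with 0 counts allows an expected count of up to 3, and the 8 together allow less per library. The remaining 43 members passed the filter on low counts.

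Promoter sequences were taken for 34 of the 45 members from a RefSeq table on GRCm38.p6 that gives 250 bases before and 50 bases after each start site. They were searched on both strands for short motifs of factors known for binding promoters of respiratory genes: GCGCANGCG for NRF1, CCGGAAG for ETS factors such as GABPA, AAGATGGCG for YY1 and TCAAGGTCA for ESRRA. A member counted as a match if any of its entries matched (37 entries for 34 members), whereas the background is a share of single entries. The NRF1 letters were present in 11 members, or 32.4%, against 6.25% of all 32851 promoters in the table. The ETS letters were present in 10 members (29.4%, against 8.86%), those of YY1 in Atp5j and Atp5j2 (5.88%, against 1.4%) and those of ESRRA in Atp5g3 alone (2.94%, against 0.423%). Member promoters were also somewhat richer in G and C, with a median of 56.0% against 52.7% over all promoters, and the share was not adjusted for it. A match is a run of letters and was not measured as a bound site.

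Atp5h, Atp5k, Atp5l, Cox6a1 and Uqcr11 carried both NRF1 and ETS letters, while 17 of the 34 carried none of the 4 motifs. The isoform pairs of complex IV, on which the values below turn, are shown first. The 150 bases before the start are given for Cox7a1 (chr7:30184021-30184170, plus strand), Cox8b (chr7:140900447-140900596, minus strand), Cox7a2 (chr9:79759854-79760003, minus strand), Cox8a (chr19:7217617-7217766, minus strand) and Cox6a1 (chr5:115348959-115349108, minus strand). Cycs (chr6:50566570-50566719), Uqcr11 (chr10:80406822-80406971) and Atp5g3 (chr2:73911327-73911476), all on the minus strand, stand for the carrier, complex III and ATP synthase. Sequences run 5′ to 3′ along the gene, and capitals mark the motif matches, which read as the reverse complement where the match is on the opposite strand and break off at the end where a match runs on past the start site.
Cox7a1: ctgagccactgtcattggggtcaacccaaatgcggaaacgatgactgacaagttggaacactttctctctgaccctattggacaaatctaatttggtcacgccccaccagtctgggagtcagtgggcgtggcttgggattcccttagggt
Cox8b: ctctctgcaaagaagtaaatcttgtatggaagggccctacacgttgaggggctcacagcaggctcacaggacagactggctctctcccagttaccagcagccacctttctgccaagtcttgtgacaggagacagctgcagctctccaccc
Cox7a2: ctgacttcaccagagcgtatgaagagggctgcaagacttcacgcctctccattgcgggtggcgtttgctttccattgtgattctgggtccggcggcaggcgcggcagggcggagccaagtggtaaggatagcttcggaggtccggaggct
Cox8a: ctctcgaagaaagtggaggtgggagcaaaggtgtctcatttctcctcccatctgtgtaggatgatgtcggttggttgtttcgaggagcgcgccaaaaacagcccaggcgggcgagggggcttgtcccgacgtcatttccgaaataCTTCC
Cox6a1: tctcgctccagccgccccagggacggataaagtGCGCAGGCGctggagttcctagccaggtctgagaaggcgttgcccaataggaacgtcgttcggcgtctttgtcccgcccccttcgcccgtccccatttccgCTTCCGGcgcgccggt
Cycs: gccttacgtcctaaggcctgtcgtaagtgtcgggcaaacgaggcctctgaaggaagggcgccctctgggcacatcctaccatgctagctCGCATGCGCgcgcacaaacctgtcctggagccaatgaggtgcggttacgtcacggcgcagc
Uqcr11: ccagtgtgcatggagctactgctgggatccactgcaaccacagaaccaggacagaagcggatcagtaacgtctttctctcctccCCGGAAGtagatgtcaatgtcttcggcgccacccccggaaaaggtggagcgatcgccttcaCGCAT
Atp5g3: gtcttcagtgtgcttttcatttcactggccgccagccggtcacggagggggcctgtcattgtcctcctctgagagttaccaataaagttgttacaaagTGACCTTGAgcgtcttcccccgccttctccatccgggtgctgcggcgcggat

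Among these, the muscle genes Cox7a1 and Cox8b have no match in the window, and neither does Cox7a2, while Cox8a has ETS letters and Cox6a1 has letters of both factors. Cycs carries the NRF1 letters 61 bases before its start. Atp5g3 carries the ESRRA letters 52 bases before its start. Cox6a2 has no entry in the table.

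None of the 43 tested members passed an adjusted p of 0.05 in KO against WT, where edgeR's quasi-likelihood test called 3 of 13336 genes, or 0.0225%. DESeq2 and limma-voom called no member either. The smallest adjusted p of a member was 0.736 in edgeR, 0.468 in DESeq2 and 0.715 in limma-voom. At an unadjusted p under 0.05 edgeR listed 2 members, Cox6a2 with the higher mean in KO and Atp5h with the lower, next to 6.4% of all genes tested (3.5% higher and 2.89% lower). The same genes were the only members whose 4 KO libraries did not overlap the 4 WT libraries, next to 4.12% of all genes, 2.14% with KO above WT and 1.98% with KO below WT. A share of 2 in 43 is near those backgrounds.

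The members as a group sat where the whole transcriptome sat. Their median log2 fold change was -0.0029, against -0.0032 for all genes tested, with 21 above 0 (49.4% of all genes tested were) and 22 below, and 26 of the 43 lay within 0.1 of 0. Median values by role were -0.0029 for complex III (9 genes), -0.02 for the 16 tested genes of complex IV and 0.02 for ATP synthase (17 genes). Single members ran from -0.30 for Atp5h to 0.61 for Cox6b2. The unadjusted 95% interval of the fold change lay within 1.5-fold in either direction for 40 of the 43 members, all but Cox6b2, Atp5g2 and Atp5l. In bulk tissue, fewer cells of a type and less RNA per cell cannot be told apart, which holds for every value given here.

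**Figure D2:**
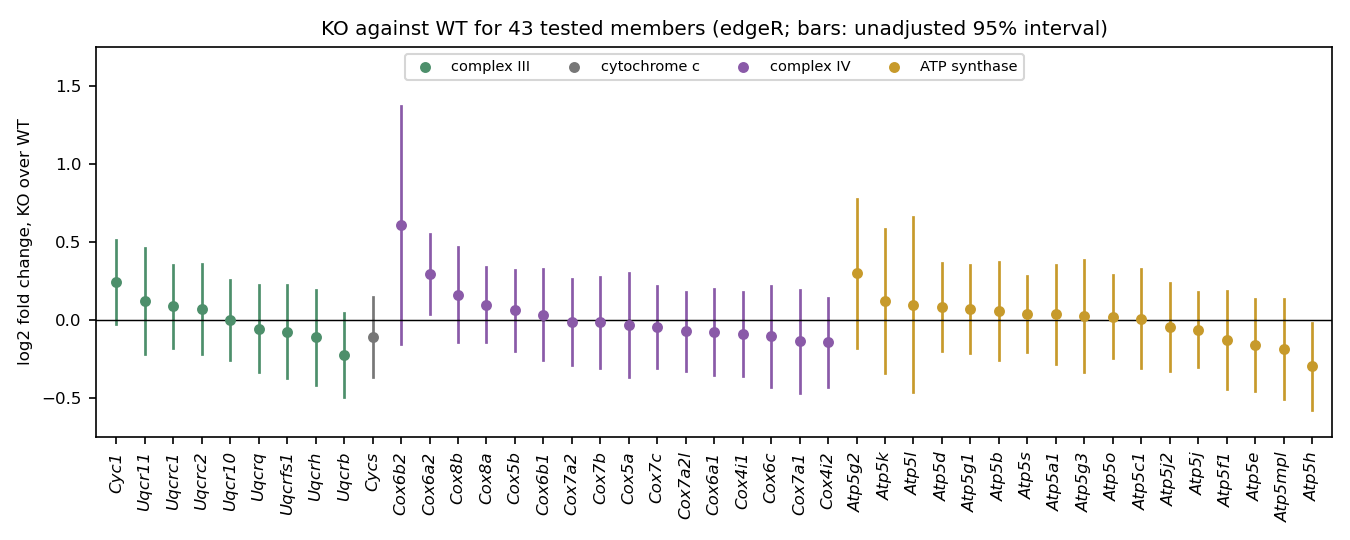
Log2 fold change of KO over WT for the 43 tested members from edgeR, grouped by role and ordered by value, with bars for the unadjusted 95% interval. Only the intervals of Cox6a2 (0.03 to 0.55) and Atp5h (-0.58 to -0.02) leave out 0, and no member passed the adjusted threshold.

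Within complex III, the core subunits Uqcrc1 and Uqcrc2, large proteins on the matrix side, had log2 fold changes of 0.09 and 0.07. Cyc1, cytochrome c1, holds the heme that hands electrons to cytochrome c. WT replicates 1 to 4 had 720.5, 751, 633 and 864 CPM of Cyc1, and KO replicates 5 to 8 had 971, 839.5, 821 and 878 CPM. Both groups overlapped only through WT replicate 4. The log2 fold change of Cyc1 was 0.24 ± 0.12 (SE; adjusted p = 0.777 in edgeR), and its unadjusted 95% interval ran from -0.03 to 0.51.

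Uqcrfs1 encodes the Rieske iron-sulfur protein, which takes the first electron from ubiquinol. It measured 733, 1067, 839.8 and 989.9 CPM in WT and 966, 789, 813 and 876 CPM in KO, groups that overlapped widely, with a log2 fold change of -0.08 ± 0.14. The 5 small subunits, Uqcrh, Uqcrb, Uqcrq, Uqcr10 and Uqcr11, had a median of -0.06, and 4 of them were below 0. Uqcrb, a subunit beside the ubiquinone site, was the lowest of complex III. It stood at 370.5, 485, 382 and 429.7 CPM in WT and 407, 328, 328 and 363 CPM in KO. KO replicates 6, 7 and 8 lay below every WT library, and KO replicate 5 lay inside the WT range. The log2 fold change of Uqcrb was -0.22 ± 0.13 (adjusted p = 0.784 in edgeR). It was -0.085 with a trend of GC content and length removed and -0.14 without WT replicate 2, and its unadjusted p was under 0.05 with library totals and without KO replicate 5. Uqcr11 had 579 to 598 CPM in 3 KO libraries and 866 CPM in KO replicate 5, outside the WT range of 508 to 709.9 CPM, and its log2 fold change of 0.12 became -0.04 without that library.

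Cytochrome c itself showed a narrow KO group inside a wide WT group. Cycs was at 108, 136, 124 and 154 CPM in WT, and the 4 KO libraries lay between 119 and 124 CPM. All 4 KO values therefore fell within the WT range. Its log2 fold change of -0.11 ± 0.12 did not pass (adjusted p = 0.885 in edgeR).

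In complex IV the clearest separation was in Cox6a2, the heart and skeletal muscle isoform of subunit 6a (chromosome 7, 128205435 to 128206387 of GRCm38, minus strand). WT replicates 1 to 4 had 2317, 2636, 2195 and 2582 CPM, and KO replicates 5 to 8 had 3315, 2869, 2812 and 2929 CPM. Every KO library exceeded every WT library, with KO replicate 5 the highest. The WT mean was 2433 ± 211 CPM and the KO mean 2981 ± 227 CPM (SD, n = 4 in both), a log2 fold change of 0.29 ± 0.12 (SE) or 1.23-fold. It did not pass the adjusted threshold (adjusted p = 0.736 in edgeR). Its unadjusted p was 0.0293, with an unadjusted 95% interval of 1.02-fold to 1.47-fold. No annotated copy of the gene with at least 95% identity over 200 bases or more was found, and shorter or less similar copies were not sought.

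Its partner Cox6a1, the isoform of most other tissues, went the other way in sign. It had 98.8, 134, 131 and 148 CPM in WT and 125, 109, 125 and 125 CPM in KO, with a log2 fold change of -0.08 ± 0.13 and groups that overlapped. The ratio of the 2 isoforms is free of library scaling. Counts of Cox6a2 over Cox6a1 stood at 23.4, 19.7, 16.7 and 17.5 in WT and at 26.5, 26.2, 22.4 and 23.5 in KO. The 3 WT libraries other than replicate 1 lay below all KO libraries, and WT replicate 1 lay among them. The difference was 0.36 on the log2 scale, with a p of 0.0571 in the exact two-sided permutation test and 0.343 after adjustment over the 6 isoform ratios tested. With 4 against 4 libraries the smallest p this test can give is 0.0286. Per length, Cox6a2 made up 94.1 ± 0.812% of the subunit 6a transcripts in WT and 95.4 ± 0.364% in KO.

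The other muscle isoforms did not share that separation. Cox7a1, the muscle form of subunit 7a, was at 984, 1631, 1403 and 1348 CPM in WT and at 1397, 1113, 1166 and 1198 CPM in KO, with a log2 fold change of -0.14 ± 0.15. Its ubiquitous partner Cox7a2 had 369, 543, 433 and 447 CPM in WT and 459, 429, 423 and 466 CPM in KO, a log2 fold change of -0.01 ± 0.13. The groups overlapped for both genes. The ratio of Cox7a1 to Cox7a2 counts ran from 2.67 to 3.24 in WT and from 2.57 to 3.04 in KO, a log2 difference of -0.12 (exact permutation p = 0.2, adjusted 0.6). Cox7a1 held 83.3 ± 1.14% of subunit 7a transcripts per length in WT and 82.1 ± 1.13% in KO, the lowest muscle share of the 3 pairs.

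Cox8b, the muscle form of subunit 8, measured 867, 1338, 1193 and 1115 CPM in WT and 1398, 1174, 1250.2 and 1228 CPM in KO. The log2 fold change was 0.16 ± 0.14. Cox8a, its ubiquitous partner, was at 127, 119, 106 and 134 CPM in WT and at 139.6, 125, 119.9 and 135 CPM in KO (0.10 ± 0.11). WT replicate 1 held the lowest Cox8b value of all 8 libraries but not the lowest Cox8a value, and its ratio of 6.84 was the lowest seen. The other WT ratios were 11.3, 11.3 and 8.30, and the KO ratios were 10.01, 9.36, 10.4 and 9.12. The difference between the groups was 0.08 on the log2 scale (exact permutation p = 0.686, adjusted 0.823), and it became -0.07 without WT replicate 1.

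**Figure D3:**
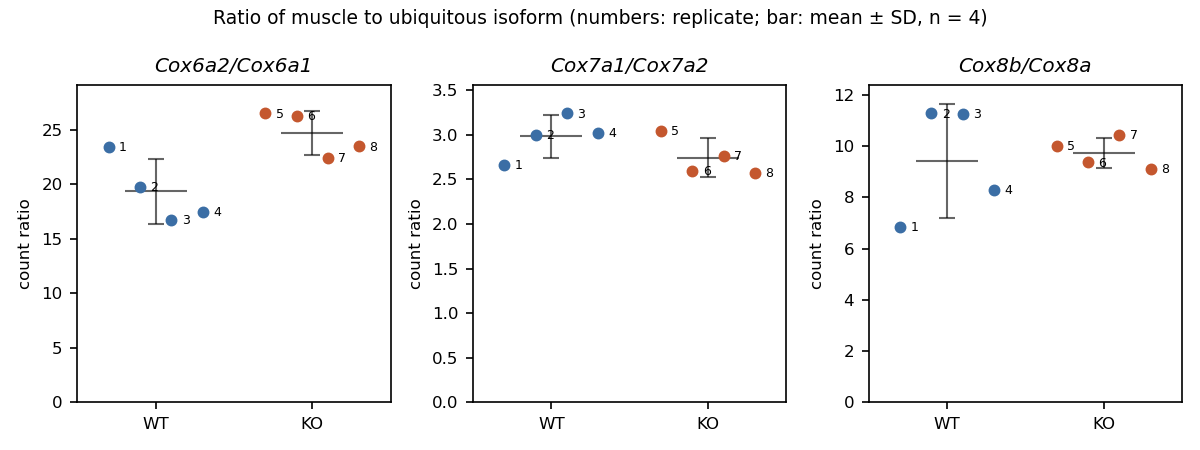
Ratio of counts of the muscle isoform to the ubiquitous isoform for subunits 6a, 7a and 8 of complex IV, 1 numbered point per library, with a bar for the mean and SD of each group (n = 4). For Cox6a2/Cox6a1, 3 of the 4 WT libraries lie below all KO libraries (exact permutation p = 0.0571), and the groups overlap in all 3 pairs.

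Subunit 4 came almost wholly from Cox4i1. Its level was 3188, 3907, 2921 and 3473 CPM in WT and 3226, 3009, 3108 and 3343 CPM in KO, with a log2 fold change of -0.09 ± 0.12. Cox4i2 had 17.2, 16.8, 15.4 and 15.9 CPM in WT and 14.1, 15.8, 16.9 and 12.2 CPM in KO, with a log2 fold change of -0.14 ± 0.13. Both genes overlapped between the groups. Cox4i2 held 0.497 ± 0.0536% of subunit 4 transcripts per length in WT and 0.477 ± 0.0845% in KO, and the log2 ratio differed by -0.07 (exact permutation p = 0.686, adjusted 0.823).

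Subunit 6b, which faces the side where cytochrome c docks, came from Cox6b1 at 757, 1026, 851 and 948 CPM in WT and 1096, 838, 845 and 889 CPM in KO (log2 fold change 0.03 ± 0.14). Cox6b2 carried the largest fold change of all members at 0.61 ± 0.35. It rested on 1.45, 0.83, 1.80 and 1.92 CPM in WT and 3.57, 2.20, 1.80 and 1.58 CPM in KO, so the groups overlapped and the interval ran from 0.898-fold to 2.58-fold. Without KO replicate 5, the log2 fold change of Cox6b2 was 0.31.

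The subunits with a single gene in the list, Cox5a, Cox5b, Cox6c and Cox7c, had log2 fold changes between -0.11 and 0.06. Cox7b, a small subunit whose isoform Cox7b2 was hardly counted, was at 650.3, 996, 878 and 823 CPM in WT and at 847, 806, 777 and 879.9 CPM in KO (-0.02 ± 0.14). Cox7a2l, the supercomplex factor, was at 170.1, 229, 193 and 197 CPM in WT and at 200.1, 171, 195 and 184 CPM in KO (-0.07 ± 0.12). The groups overlapped in each of these genes.

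In ATP synthase, the catalytic head was nearly the same in both groups by mean. Atp5b, the catalytic beta subunit, had the most counts of all members. Its level was 4761, 5245, 3786 and 5581 CPM in WT and 5199, 4914, 4441 and 5627 CPM in KO, a log2 fold change of 0.06 ± 0.15 with overlapping groups. Atp5a1 (alpha), Atp5c1 (gamma) and Atp5d (delta) had log2 fold changes of 0.04, 0.0064 and 0.08. Atp5e, the small epsilon subunit of the rotor, was the member of the head farthest from 0. It had 524, 707, 655 and 582 CPM in WT and 669, 501, 496 and 538 CPM in KO. KO replicates 6 and 7 lay below all WT libraries, and the log2 fold change was -0.16 ± 0.14 (adjusted p = 0.838 in edgeR).

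The peripheral stalk holds the head still against the turning rotor, and its 4 genes had a median log2 fold change of -0.10. Atp5h, subunit d (chromosome 11, 115415689 to 115419962 of GRCm38, minus strand), was the lowest of all 43 members. WT replicates 1 to 4 had 1293, 1820.2, 1418 and 1372 CPM, and KO replicates 5 to 8 had 1152, 1193, 1168 and 1285 CPM. All KO libraries lay below all WT libraries, but KO replicate 8 and WT replicate 1 nearly met, and WT replicate 2 stood far above the others. The log2 fold change was -0.30 ± 0.13, or 0.813-fold (adjusted p = 0.772 in edgeR, unadjusted p = 0.0383), and it was -0.18 without WT replicate 2.

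Atp5h shares sequence with the pseudogenes Gm4953 and Gm10250, which held 6.08% of the counts of the 3 genes together. With their counts added, the groups overlapped, with WT replicate 1 at 1344 CPM and KO replicate 8 at 1371 CPM. The log2 ratio of the summed means was -0.29. The other stalk subunits were Atp5o, which joins the stalk to the head, at 0.02, Atp5j at -0.06 and Atp5f1, subunit b, at -0.13, all with overlapping groups.

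Subunit c, which forms the turning ring in the membrane, is encoded by 3 genes whose mature proteins are identical. Atp5g3 supplied 60.8 to 69.9% of their transcripts per length, Atp5g1 supplied 28.8 to 36.3% and Atp5g2 supplied 1.04 to 2.95%. The order was the same in all 8 libraries. These shares depend on the length taken for Atp5g1, whose level was 1658 CPM per kb on the transcript of 596 bases used here and would be 209.5 on its longest principal transcript of 4715 bases. Atp5g3 was at 1617, 2985, 2475 and 2666 CPM in WT and 2474, 2409, 2495 and 2529 CPM in KO, with a log2 fold change of 0.02 ± 0.17. WT replicate 1 stood far below the other 7 libraries. Without it the log2 fold change was -0.13.

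Atp5g1 had 807, 1027, 872 and 1151 CPM in WT and 1026, 974, 988 and 1060 CPM in KO (0.07 ± 0.13). Atp5g2 had 48.6, 32.3, 22.8 and 50.4 CPM in WT and 51.0, 46.3, 36.2 and 56.1 CPM in KO (0.30 ± 0.22). The ratios of Atp5g1 and Atp5g2 to Atp5g3 differed by 0.02 and 0.29 on the log2 scale (exact permutation p = 0.971 and 0.457, adjusted 0.971 and 0.823). The latter was 0.045 without WT replicate 3 and 0.61 without WT replicate 1. Near-identical pseudogenes held 49.2% of the reads of Atp5g2 and its copies together, so the level of Atp5g2 is uncertain.

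Among the membrane subunits, Atp5mpl, a small proteolipid, had 484, 804, 729.6 and 584 CPM in WT and 591, 557, 581 and 557 CPM in KO. The WT libraries spanned a wide range that contained all 4 KO values, and the log2 fold change was -0.19 ± 0.15. It was -0.31 without WT replicate 1, with an unadjusted p under 0.05 there, -0.07 without WT replicate 2 and -0.04 with a trend of GC content and length removed. Atp5j2 (subunit f) was at -0.05. Atp5k (subunit e) was at 348 to 371 CPM in 3 KO libraries and at 640.0 CPM in KO replicate 5, above the WT range of 279 to 469.9 CPM. Its log2 fold change of 0.12 ± 0.21 became -0.13 without that library. Atp5l (subunit g) stood at only 26.9 CPM per kb. Its annotated copies held 77.9% of the counts of the gene and copies together, so that value does not give the level of subunit g. Atp5s, the factor named after the complex, had 18.1 to 20.6 CPM in WT and 18.2 to 21.7 CPM in KO, with a log2 fold change of 0.04 ± 0.11.

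Copies with at least 95% identity over 200 bases or more were found for 14 of the 45 members. They held over 1% of the combined counts for 7 genes: Atp5l, Atp5g2, Atp5h, Atp5o (2.92%), Cox7a2l (2.77%), Atp5g1 (2.01%) and Uqcrb (1.51%). How reads that fit several places were handled is not stated in the sources. The other 31 members, Cox6a2, Cyc1, Cox4i1 and Atp5b among them, had no such copy.

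Across libraries most members moved together, though not all parts of a complex did, and the spread lay mainly within the WT group. Each member's log2 CPM was set against its own mean over the 8 libraries, and the median deviation of the 43 members was -0.24 in WT replicate 1 and 0.19 in WT replicate 2. In the other 6 libraries it lay between -0.07 and 0.08, but parts of a complex could move apart there. In WT replicate 3 the median was -0.30 for the 5 genes of the catalytic head of ATP synthase and 0.23 for its 4 membrane subunits, Atp5l included. In KO replicate 8 these medians were 0.20 and -0.09, and in complex III the core subunits were at 0.17 and the small subunits at -0.08. The head did not move as 1 unit. In WT replicate 3, Atp5d had 989 CPM and Atp5e 655 CPM, next to means of 1010 and 584 CPM over the 8 libraries. In KO replicate 8, Atp5e was below its mean, at 538 CPM. Of the 38 members with a mean of at least 100 CPM, 35 (92.1%) had a larger log2 SD in WT than in KO, as did 75.4% of all 1249 genes at that level. The median within-group SD of log2 CPM was 0.176 for these 38 members and 0.176 for all genes at that level. WT replicate 1 held the lowest value of 28 members and WT replicate 2 the highest value of 22. These counts and the deviations by library were not worked out over all genes, so they are not shown to be particular to the members. All 3 complexes were low in WT replicate 1, with medians of -0.24 for complex III, -0.27 for complex IV and -0.20 for ATP synthase. WT replicate 1 is also the library with the highest mitochondrially encoded share (29.2%), and the part of that share in the low values was not tested. Members with transcripts under 700 bases deviated by -0.28 in that library and longer ones by -0.19.

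**Figure D4:**
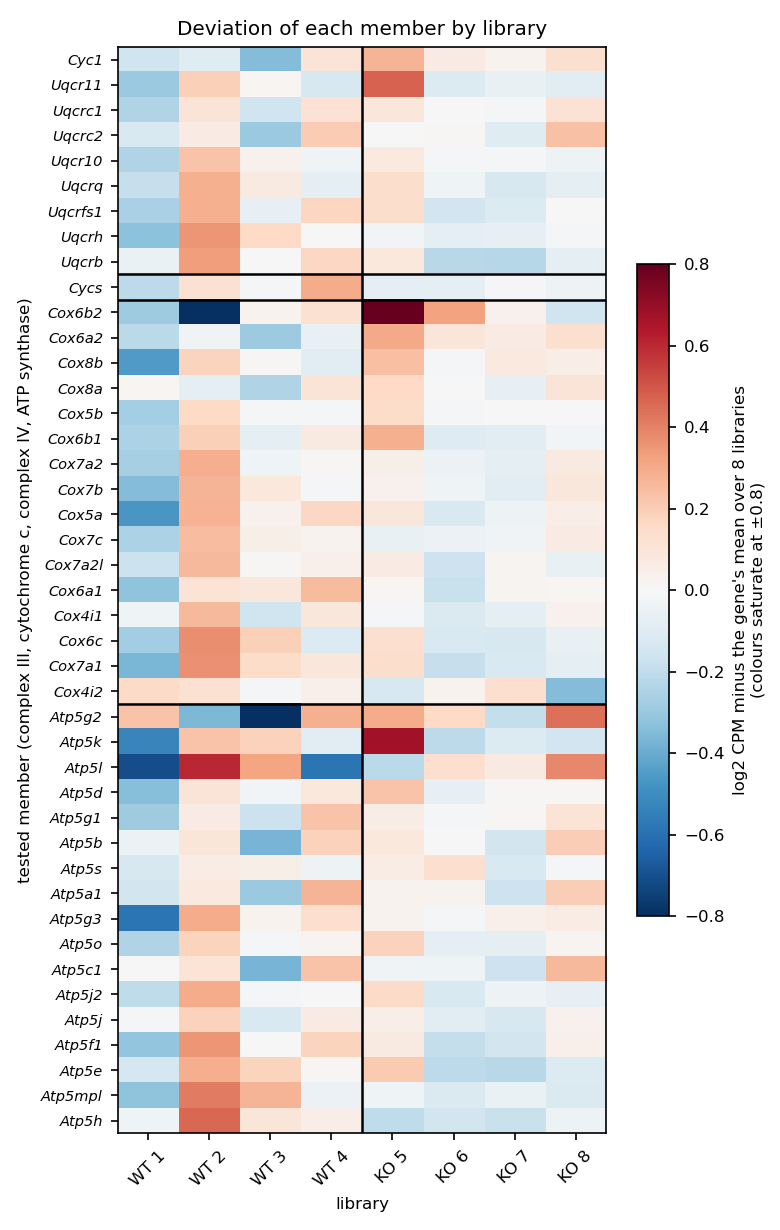
Log2 CPM of each tested member minus its own mean over 8 libraries, 1 column per library and 1 row per member, grouped by role, with colours that saturate at 0.8 in either direction. The column of WT replicate 1 is mostly blue (median -0.24), that of WT replicate 2 mostly red (median 0.19), and the KO columns are paler, apart from single red cells in KO replicate 5.

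The members' median lay so near 0 that its sign changed with the libraries counted, and it moved most with WT replicates 1 and 2. Without WT replicate 1 the median log2 fold change of the members was -0.08, with 11 above 0 and 32 below, and without WT replicate 2 it was 0.07, with 31 above 0 and 12 below. With both left out it was 0.00068, with 22 above and 21 below. Leaving out a KO library gave medians from -0.04 (without KO replicate 5) to 0.01 (without KO replicate 7). The median over all tested genes stayed between -0.0079 and 0.0037 in these and the other fits with libraries left out. The scaling of libraries, redone in each fit, keeps that median near 0. With library totals alone and all 8 libraries, it was -0.051 and that of the members -0.052. No member passed the adjusted threshold in any fit with libraries left out.

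**Figure D5:**
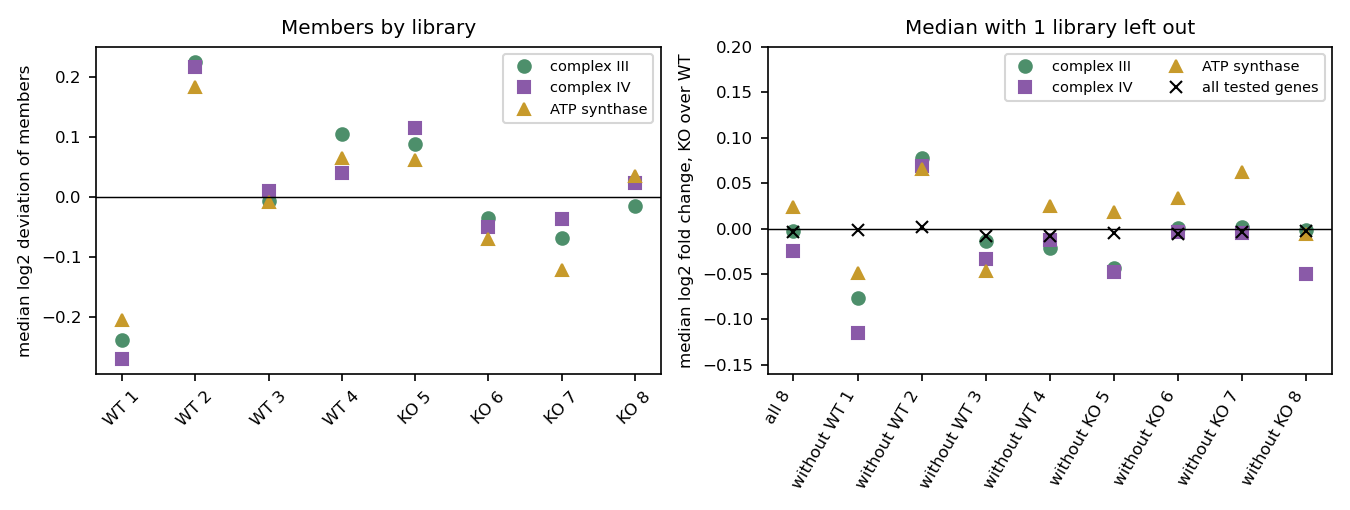
Left, median log2 deviation of the tested members from their own means, by library, for the 3 complexes; right, median log2 fold change of KO over WT with all 8 libraries and with each library left out in turn, with all tested genes as crosses. The complexes lie close together in each library, from about -0.24 in WT replicate 1 to 0.19 in WT replicate 2 over all members. Their medians turn sign with the WT library left out. The crosses stay near 0, where the scaling of libraries, redone in each fit, keeps them.

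Deviations from the group means correlated at a median r of 0.600 over the 903 pairs of members. This describes 8 libraries whose members share depth and scaling, and no p is given. The members closest to the median of the others were Atp5f1 (r = 0.97), Cox7a2 (0.97) and Atp5o (0.96). Those least like the others were Cox4i2 (-0.33), Cox6b2 (-0.22) and Atp5g2 (-0.19), which are also among the lowest by level, and then Cox8a (0.06), Atp5c1 (0.27), Cyc1 (0.36), Atp5b (0.37), Uqcrc2 (0.41) and Atp5a1 (0.47).

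Assembly factors of the same complexes were read from the same fit. Of a list of 37, all but Pet117 were tested and 0 passed the adjusted threshold in edgeR. In total 11 were above 0 and 25 below, with a median of -0.07. At an unadjusted p under 0.05 there were 2 of 36, both of complex IV, against 6.4% of all genes tested, so this count was near the background. Cox20, a chaperone of the mitochondrially encoded subunit 2, had 67.8, 82.7, 98.4 and 78.6 CPM in WT and 65.7, 59.4, 56.9 and 64.9 CPM in KO. Every KO library lay below every WT library, by a narrow margin between KO replicate 5 and WT replicate 1. Its log2 fold change was -0.41 ± 0.12 (adjusted p = 0.711 in edgeR). Cmc2, a small twin-cysteine protein, had 46.3 to 55.6 CPM in WT and 42.2 to 46.5 CPM in KO, with a log2 fold change of -0.23 ± 0.10 (adjusted p = 0.768 in edgeR).

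The mitochondrially encoded partners had higher means in KO without passing the test. mt-Cytb, the heme protein at the centre of complex III, was at 54348, 36530.2, 34495 and 41864 CPM in WT and 56865, 47172, 52904 and 49662 CPM in KO, with a log2 fold change of 0.30 ± 0.17 (adjusted p = 0.784 in edgeR). WT replicate 1 lay among the KO libraries and the other 3 WT libraries lay below them. mt-Co1, the catalytic subunit of complex IV, was at 86349 CPM in WT replicate 1, at 52038 to 54731 CPM in the other WT libraries and at 61325 to 76802 CPM in KO, so that here too only WT replicate 1 overlapped the KO group. It had a log2 fold change of 0.11 ± 0.18 (adjusted p = 0.929 in edgeR). mt-Co2, mt-Co3, mt-Atp6 and mt-Atp8 are nearly empty rows in the table, with at most 105 counts in a library, and were not read as levels. Ndufa4, a subunit of complex IV that its symbol leaves out of the rule, was at -0.11 (adjusted p = 0.903 in edgeR).

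Of the factors whose motifs were searched, none of Nrf1, Gabpa, Gabpb1, Yy1 and Esrra passed the adjusted threshold in edgeR, and 0 of the 5 had an unadjusted p under 0.05. Esrra, a nuclear receptor of oxidative metabolism, was at 0.31 ± 0.18 (adjusted p = 0.797 in edgeR) and Gabpa at -0.17 ± 0.12 (adjusted p = 0.818 in edgeR). Among the marker lists for other tissues, 5 skeletal muscle genes summed to 1.96 to 3.87 CPM in WT and 2.12 to 3.08 CPM in KO, against 60652 or more for the cardiomyocyte list. Skeletal muscle is another tissue that uses Cox6a2, Cox7a1 and Cox8b. The 6 genes of brown and white fat summed to 17.1 to 37.4 CPM in WT and 23.3 to 36.6 CPM in KO. Cidea made up most of that sum, with means of 24.1 CPM in WT and 28.5 CPM in KO. Cfd stood at 12.9 CPM in WT replicate 2 and at 0.426 to 2.09 CPM in every other library. Its log2 fold change of -1.92 ± 0.79 did not pass (adjusted p = 0.747 in edgeR). Adipoq was also highest in WT replicate 2, at 1.84 CPM against at most 0.525 CPM elsewhere. The 4 atrial markers summed to 264 to 481 CPM in WT and 457 to 713 CPM in KO. Nppa made up nearly all of it, with means of 400.2 CPM in WT and 601 CPM in KO. Its log2 fold change of 0.59 ± 0.19 did not pass (adjusted p = 0.711 in edgeR), and the groups overlapped. Means of the other markers were 5.10 and 5.07 CPM for Myl4, 0.919 and 0.464 CPM for Myl7, and 0.160 and 0.106 CPM for Sln. The 3 fibroblast markers summed to 717 to 903 CPM in WT and 568 to 723 CPM in KO. All 3 had negative log2 fold changes, and Dcn did not overlap between the groups. The 3 red blood cell markers summed to 622 to 1411 CPM in WT and 894 to 1689 CPM in KO. All 3 had positive ones. Endothelial sums were 732 to 968 CPM in WT and 706 to 981 CPM in KO. Macrophage sums were 52.8 to 94.0 CPM in WT and 57.3 to 115 CPM in KO. No gene of these lists passed the adjusted threshold. The part of any marker list in the members' values was not tested.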

How the data were processed

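Poly(A) RNA of 8 left ventricles (4 WT and 4 KO) was sequenced, and 1 deposited table holds the raw counts that the authors made, by Ensembl gene and heart. The submitters' processing notes name STAR 2.7.1a and the build GRCm38 (mm10). Which tool counted the reads, with which strand setting and annotation, is not given in the sources used here. Without strand, reads of overlapping and antisense genes could not be told apart. Of 38293 identifiers, 36429 matched GENCODE M21, and those without a match held at most 0.187% of a library's counts.

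After filterByExpr (minimum count 10) and TMM scaling, edgeR 4.0.16 in R 4.3.3 gave quasi-likelihood tests (two-sided, with genotype as the only term), with Benjamini-Hochberg adjustment over all 13336 tested genes and a threshold of 0.05. Library totals of 11101901 to 14699949 set the counting precision. CPM use TMM-scaled library sizes, and intervals of fold changes are at 95% and unadjusted. Isoform ratios were tested by exact permutation, two-sided (scipy 1.17.1). Near-identical copies were sought with blastn 2.17.0 among GENCODE transcripts. The design text has the RNA taken from separate hearts, so p-values measure the spread between animals.

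The members and lists were chosen with earlier results of these data known. Values in every library are given for the isoform genes, the members with the 5 largest and 5 smallest fold changes or the 5 smallest p, and Cyc1, Cycs, Uqcrfs1 and Atp5b, and of each further list the 2 genes with the smallest p are named. Uqcr11, Atp5k and Cox5b were added after their values were seen. Alternatives were DESeq2 1.42.0 and its size factors, library totals, limma-voom (limma 3.58.1), other filters, removal of mitochondrially encoded genes, a trend of GC content and length removed from each library (splines of 4 degrees of freedom) and each library left out. The fit without WT replicates 1 and 2 was added after the data were seen.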

Additional observations from a re-analysis of the deposited data

Results flagged for a closer look

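Of 108 groups of 4 values examined (member CPM, isoform ratios and shares of counts), 5 held a sample whose distance from its nearest neighbour took up nearly all of the group's range (Dixon's test at 95%), which chance gives in about 5% of groups. KO replicate 5 held 3 of them: Uqcr11 at 866 CPM against 579 to 598 CPM in the other KO libraries, Atp5k at 640.0 CPM against 348 to 371 CPM, and Cox5b at 1234 CPM against 1106 to 1118 CPM. Uqcr11 and Atp5k are among the members with the shortest transcripts (445 and 371 bases), and Cox5b, a single-gene subunit of complex IV, has 865 bases. Cox6a1 in KO replicate 6 was low at 109 CPM against 125 CPM in each of the other KO libraries. The mitochondrially encoded share of WT replicate 1 was 29.2% against 19.4 to 19.9% in the other WT libraries. The cause of these values was not tested.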

How the results depend on the processing

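No member passed the adjusted threshold under any alternative. The number of all genes called was 3, and it became 11 with DESeq2, 10 with no filter, 2 to 6 with 1 library left out (5 without WT replicate 1, 6 without WT replicate 4, 2 without KO replicate 6) and 6 without WT replicates 1 and 2. Members with an unadjusted p under 0.05 numbered 1 to 3, and Cox6a2 was not among them without WT replicate 3, KO replicate 5 or KO replicate 8, nor Atp5h without WT replicate 2, KO replicate 5, 6 or 7, or both WT replicates 1 and 2. The median of the members ran from -0.08 to 0.07 with 1 library left out and was 0.0053 with limma-voom and 0.015 with the GC and length trend removed, and their share of counts differed by -0.11 percentage points (KO minus WT), with -0.37 to 0.03 when 1 library was left out and 0.04 among nuclear counts.

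Named members near 0 changed sign, and the cause was not tested. With library totals, Cox6b1 was -0.015 and Atp5g3 -0.027. With the GC and length trend removed, Cox7a2 was 0.0092 and Cox7b 0.14. Without WT replicates 1 and 2, Cox7a2 was 0.013 and Atp5g3 -0.054. With 1 library left out in turn, log2 fold changes ran as follows: Uqcrfs1 from -0.17 to 0.012, Cox6b1 from -0.063 to 0.11, Cox7a2 from -0.095 to 0.093, Cox7a2l from -0.14 to 0.0062, Cox7b from -0.12 to 0.078, Atp5b from -0.046 to 0.13, Atp5g1 from -0.0063 to 0.16 and Atp5g3 from -0.13 to 0.14. Isoform ratios ran as follows on the log2 scale: Cox8b/Cox8a from -0.067 to 0.17, Cox4i2/Cox4i1 from -0.15 to 0.042 and Atp5g1/Atp5g3 from -0.052 to 0.13. Cox6a2/Cox6a1 ran from 0.29 to 0.46 and Atp5g2/Atp5g3 from 0.045 to 0.61. The exact permutation p of Cox6a2/Cox6a1 was 0.0571, the smallest that 4 against 3 libraries allow, without WT replicate 1 or KO replicate 7 and 0.114 without any of the other 6 libraries.

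Counting error limits Cox6b2, Cox7b2 and Cox8c, and copies limit Atp5l and Atp5g2. No paired analysis was possible because the replicate numbers are not shared by the groups (1 to 4 in WT, 5 to 8 in KO).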

Other observations

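Counts of some near-identical copies of members differed widely between hearts of the same genotype. Gm6969, a processed copy of Cox7a2l, had 13.8 CPM in WT replicate 1, 16.4 CPM in WT replicate 4 and 12 CPM in KO replicate 7, and at most 0.35 CPM in the other 5 libraries. Cox7a2l itself was at 170.1, 197 and 195 CPM in those 3 libraries and at 171 to 229 CPM in the others, so its own level did not separate them. The pair Gm10175 and Gm10231, copies of Atp5g2, summed to 11.9 CPM in WT replicate 1 and to 39.4 to 50.9 CPM in the other 7 libraries. Copies of Atp5l, the gene of ATP synthase subunit g, summed to 21.4 CPM in WT replicate 1 and to 40.4 to 78.99 CPM elsewhere. Among the nearly empty mitochondrially encoded rows, mt-Atp6 had 105 counts in KO replicate 5 and 1 to 10 counts in the other libraries. These genes were picked after their values were seen.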
